A study of Mus musculus with 6 samples.

Results

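The wide shared regions of H3K27 acetylation described here are stretches of at least 5 kb in which lung mesothelium and lung epithelium of the mouse embryo both carried the mark in every library. Peaks from 4 CUT&RUN libraries were merged where they overlapped or touched on chromosomes 1 to 19, X and Y, which gave 132165 merged regions. Of these, 4281 were overlapped by a peak in all 4 libraries, and 824 of the 4281 reached 5 kb. The 824 regions are the members; the 3457 others are called narrower shared regions.

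CUT&RUN cuts and releases the DNA next to an antibody-bound histone mark, so a peak is a stretch with more released fragments than its surroundings. Lungs of E16.5 embryos, a stage of late gestation, from timed matings of Myrf Fl/Fl mice (a floxed allele of the transcription factor gene Myrf, with no Cre driver named) were pooled and sorted by flow cytometry; the series text calls the cells wildtype, and all groups share this background. The mesothelium group (PDPN+EPCAM-CD45-CD31-DAPI-) had 2 libraries, labelled with 25k and 100k cells, and the epithelium group (PDPN+EPCAM+CD45-CD31-DAPI-) had 2, labelled with 100k and 200k. IgG control libraries from epithelium were not analysed here. Nothing in the labels says that the 2 libraries of a cell type came from separate pools of lungs, so p-values measure no more than how these libraries scatter, and that scatter may be technical. Both sorts required podoplanin, which lies on lung mesothelium and on alveolar type 1 epithelium, and the mesothelium gate would also admit other podoplanin-positive cells that lack EPCAM, CD45 and CD31.

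Acetylation of lysine 27 on histone H3 is written by the acetyltransferases p300 and CBP and marks active promoters and enhancers, where it keeps the opposing polycomb methylation off the same residue. Most acetylated stretches cover one promoter or enhancer. Long stretches form where several elements lie side by side or where acetylation runs into a gene body, and such stretches are often found at genes for cell identity and at highly transcribed housekeeping genes. The mesothelium is the flat cell sheet that covers the lung, and the epithelium lines its airways and future air sacs.

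The peak lists hold no read counts, so sequencing depth is unknown and no counting interval could be given. The 4 lists held 39006 and 41524 peaks in mesothelium and 47869 and 46632 in epithelium, which covered 35.7, 39.8, 44.4 and 41.4 Mb. Marker genes fitted the sorts in part. Of 15 mesothelial markers, 7 (Wt1, Lrrn4, Muc16, Gpm6a, Bnc1, Cav1 and Aldh1a2) lay at regions with a peak in both mesothelium libraries and in neither epithelium library, while Msln, Dpp4 and Thbd lay at the reverse kind. Of 17 epithelial junction and keratin genes, 8 lay at epithelium-only regions, Cdh1 and Epcam among them, and 0 at mesothelium-only regions. Pecam1 and Tek of 12 endothelial markers and Pdgfrb and Dcn of 12 fibroblast and smooth muscle markers lay at mesothelium-only regions, and 0 of 10 immune markers lay at either kind. Of all 21887 coding genes, 2074 lay at mesothelium-only and 2070 at epithelium-only regions. Long genes did so more often: 736 of 2429 genes of at least 100 kb lay at mesothelium-only regions, against 393 of 11848 under 20 kb. None of the mesothelial, endothelial, immune or fibroblast and smooth muscle markers lay at a member, so no member is a stretch over one of these marker genes.

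Promoter sequence can be shown for the members in which a listed start site was acetylated in both cell types. The 5 promoters below belong to the first 5 members, in order of the share of their bases under all 4 libraries, that held a promoter lying whole under a peak in every library. They are given 5′ to 3′ on the gene's strand, 250 bases before to 50 bases after the start, from RefSeq on GRCm38.p6, the assembly called mm10. Capitals mark exact matches on either strand to 8 short motifs. These are GGGCGG for the GC box, CCAAT for the box of that name, TATAAA for the TATA box, CCGGAAG for ETS factors, TGACGTCA for the cyclic AMP response element, TGANTCA for AP-1, ACATTCC for TEAD factors and CACGTG for the E-box. The promoters are those of Ppfibp2 at chr7:107665228-107665527 on the plus strand, B4galt1 at chr4:40853935-40854234 on the minus strand, N4bp2 at chr5:65763271-65763570, Gemin2 at chr12:59013141-59013440 and Cdk12 at chr11:98203055-98203354, the last 3 on the plus strand.
Ppfibp2: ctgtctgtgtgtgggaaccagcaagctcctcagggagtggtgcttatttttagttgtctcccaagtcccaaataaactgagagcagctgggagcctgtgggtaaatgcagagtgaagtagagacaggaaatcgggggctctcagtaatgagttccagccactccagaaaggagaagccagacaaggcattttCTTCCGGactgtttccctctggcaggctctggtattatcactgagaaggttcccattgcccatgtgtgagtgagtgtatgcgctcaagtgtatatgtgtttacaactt
B4galt1: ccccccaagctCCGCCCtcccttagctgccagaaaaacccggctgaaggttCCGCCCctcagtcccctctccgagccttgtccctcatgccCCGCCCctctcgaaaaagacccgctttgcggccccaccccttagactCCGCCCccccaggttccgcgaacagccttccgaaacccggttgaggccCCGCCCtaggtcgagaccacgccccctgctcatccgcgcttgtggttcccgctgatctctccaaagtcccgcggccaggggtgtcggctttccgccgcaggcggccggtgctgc
N4bp2: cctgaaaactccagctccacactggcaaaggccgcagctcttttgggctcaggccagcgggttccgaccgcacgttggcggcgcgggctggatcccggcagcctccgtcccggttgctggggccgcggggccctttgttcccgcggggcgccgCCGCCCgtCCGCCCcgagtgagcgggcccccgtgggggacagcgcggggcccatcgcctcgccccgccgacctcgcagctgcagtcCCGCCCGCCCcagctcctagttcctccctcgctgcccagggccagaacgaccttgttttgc
Gemin2: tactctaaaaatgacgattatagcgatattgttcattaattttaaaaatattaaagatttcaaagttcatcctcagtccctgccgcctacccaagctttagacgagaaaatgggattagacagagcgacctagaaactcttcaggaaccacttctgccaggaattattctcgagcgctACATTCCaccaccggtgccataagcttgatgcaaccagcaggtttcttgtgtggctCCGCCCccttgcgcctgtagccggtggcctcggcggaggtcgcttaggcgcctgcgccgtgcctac
Cdk12: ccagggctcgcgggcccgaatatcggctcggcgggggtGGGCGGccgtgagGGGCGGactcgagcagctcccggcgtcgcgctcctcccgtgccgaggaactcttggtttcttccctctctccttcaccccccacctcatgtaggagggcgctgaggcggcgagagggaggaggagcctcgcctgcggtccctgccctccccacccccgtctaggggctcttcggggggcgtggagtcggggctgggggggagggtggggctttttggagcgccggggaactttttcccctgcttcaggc
Ppfibp2 encodes a liprin scaffold protein, B4galt1 a galactosyltransferase of the Golgi, Gemin2 a part of the SMN complex that assembles splicing particles, and Cdk12 a kinase that phosphorylates RNA polymerase II. The first promoter differs from the rest in base composition: its ratio of observed to expected CpG was 0.170, against 0.820 for B4galt1, 0.848 for N4bp2, 0.942 for Gemin2 and 0.713 for Cdk12. Its capitals mark an ETS match and no GC box, whereas the other 4 each hold at least 1 GC box.

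MicroRNA genes inside the members give a second set of sequences, shown because each lies in a stretch acetylated in both cell types. Of 1005 hairpins in the RefSeq table, 9 lay whole inside 8 members. The 5 mature microRNAs below come from 4 of those members, with the seed (bases 2 to 8, which pair with target messages) in capitals.
miR-15b-5p: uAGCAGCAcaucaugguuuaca
miR-16-5p: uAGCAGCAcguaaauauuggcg
miR-30a-5p: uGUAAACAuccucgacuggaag
let-7i-5p: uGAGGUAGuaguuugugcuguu
miR-140-3p: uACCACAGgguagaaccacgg
miR-15b-5p and miR-16-5p share the seed AGCAGCA, and their 2 hairpins, Mir15b and Mir16-2, lay in the 8.29-kb member at chr3:69004160-69012450 over Smc4, a condensin subunit gene, and Ift80. Peaks covered 4.34 and 5.89 kb of it in mesothelium and 4.63 and 5.60 kb in epithelium, and the 2 groups overlapped. Mir30a lay in a 14.0-kb intergenic member at chr1:23262578-23276599, whose nearest coding gene, Ogfrl1, was 89.8 kb away. That member was covered for 7.59 and 3.85 kb in mesothelium against 8.60 and 8.10 kb in epithelium, and the whole hairpin lay under a peak in every library. The Mirlet7i member, 5.89 kb at chr10:122982418-122988305, was covered for 4.74 and 2.32 kb in mesothelium against 2.75 and 2.77 kb in epithelium. Mir140 lay in a member within Wwp2, the ubiquitin ligase gene that hosts it, at chr8:107544267-107552251, with 2.27 and 2.52 kb in mesothelium against 7.49 and 3.47 kb in epithelium, and the Mir140 hairpin itself lay under a peak in the first epithelium library only. Hairpins were less dense in the members (1.5 per Mb) than in the narrower shared regions (2.85 per Mb), and denser than in mesothelium-only (0.660 per Mb) and epithelium-only regions (0.876 per Mb).

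Members were selected on 2 measured values, their merged width and the presence of a peak in each library, so both are given as a description with no test. The members ranged from 5003 bp to 21.7 kb, with a median of 6452 bp (quartiles 5573 and 7971 bp), and 103 of them reached 10 kb while 307 lay between 5 and 6 kb. They made up 19.2% of the shared regions and 37.8% of the bases of those regions, 5.98 Mb in all, and 0.623% of the merged regions. The narrower shared regions had a median width of 2744 bp. The members closest to the threshold were 5003 bp wide at Sec23a with Gemin2 and at Cops5 with Cspp1, and 5004 bp wide at Ppp1r12a. The shared regions closest under it were 4996 bp at Mprip, 4994 bp at Rai1 and 4992 bp at Pias1, so the threshold cuts a continuous range. Members lay on every autosome, from 23 on chromosome 10 to 67 on chromosome 11. No member lay on X or Y, although 16 shared regions lay on X and the 4 libraries had between 1.80% and 2.23% of their peaks there.

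A wide merged region was not as a rule 1 wide peak. In 196 members every library had a single peak, but 354 members held no single peak of 5 kb in any library, 470 held one in some library and 4 held one in all 4. A single peak spanned the whole region in 108 members. The longest single peak, 18.3 kb, was in the second epithelium library at the intergenic region near Mbip. The members' peaks numbered 1187, 1120, 1188 and 1205 in the 4 libraries, 2.48% to 3.04% of each list, and held 6.76% to 7.93% of each library's covered bases. The median share of a member's width under peaks was 45.1% and 43.6% in the mesothelium libraries, lower than the 57.6% and 50.2% of the epithelium libraries.

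**Figure D1:**
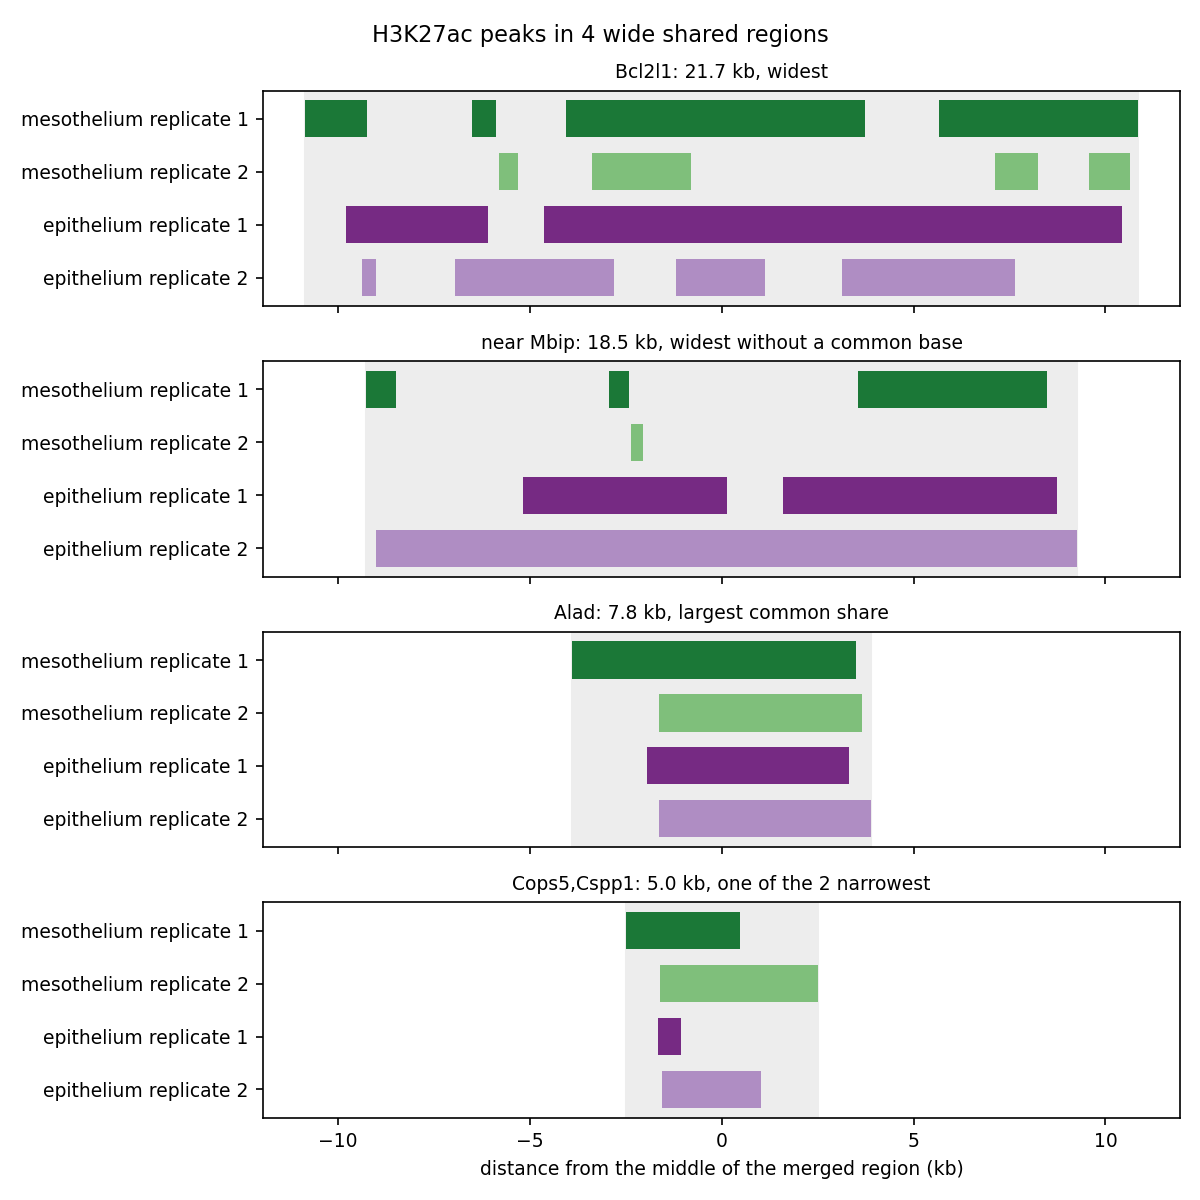
Peaks (bars) of the 4 libraries in 4 members, by distance in kb from the middle of the merged region (grey). The 21.7-kb Bcl2l1 region is pieced together from several peaks in every library, the region near Mbip has 0 bases common to all 4, the peaks at Alad lie over each other for 4.94 kb, and Cops5 with Cspp1 is one of the 2 narrowest members.

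The bases under a peak in all 4 libraries were few. Of the members' bases, 38.2% lay under a peak in 1 library, 31.6% in 2, 20.4% in 3 and 9.76% in all 4. In 293 members (35.6%) not 1 base lay under all 4 libraries: their peaks touched the merged region at different places. The narrower shared regions had 0 common bases in 969 cases (28.0%), and their median common share was 13.1% of the width against 5.71% in the members. In base pairs the medians were 338 bp in narrower shared regions and 402 bp in members. Only 5 members had at least 50% of their width in common, and 87 had at least 25%. Coverage was thin in places: 164 members had under 10% of their width under peaks in at least 1 library, 336 had at least 25% in every library, and 41 had at least 50%.

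Bases under exactly 2 libraries sorted by cell type in part. Both epithelium libraries alone covered 9.52% of member bases and both mesothelium libraries alone 5.46%, while the 4 combinations of 1 library from each cell type covered 3.51% to 4.97% (mean 4.17% ± 0.624, SD, n = 4 combinations). The overlap of covered bases as a share of their union was 0.405 for the epithelium pair and 0.338 for the mesothelium pair. Across cell types it lay between 0.291 and 0.336, so the mesothelium pair was hardly closer than the closest pair of mixed type.

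**Figure D2:**
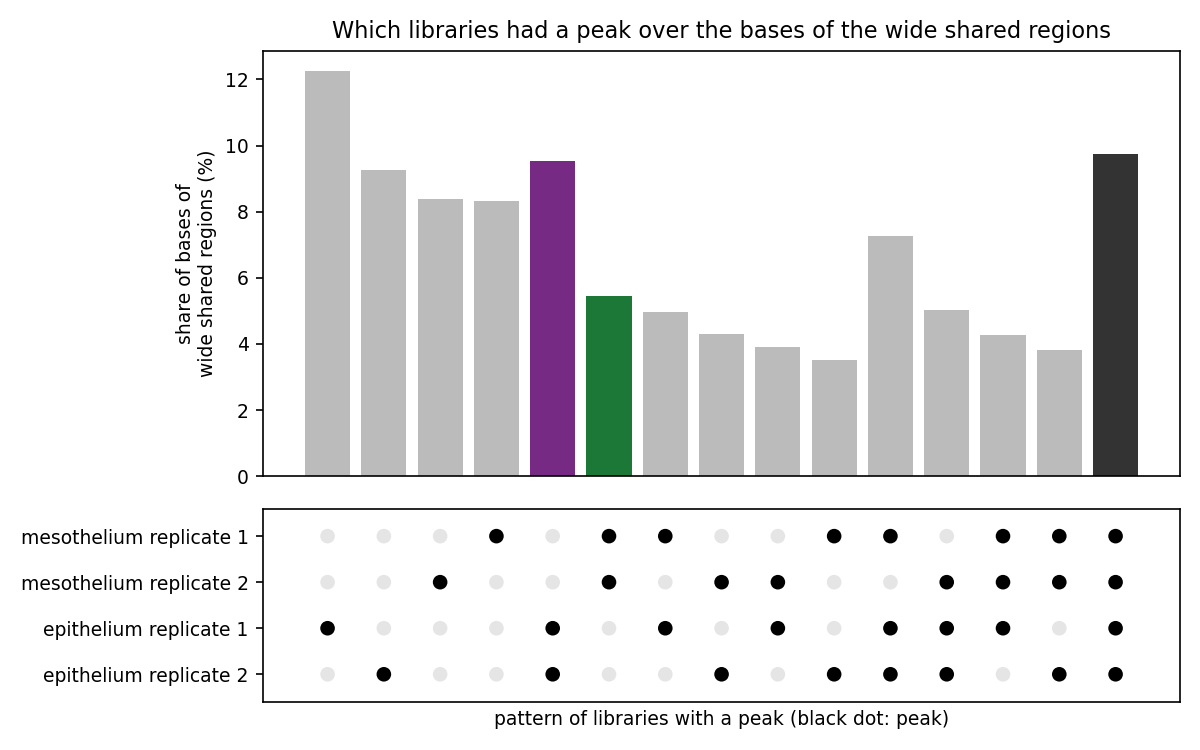
Share of the members' bases (%, bars) under a peak in each combination of libraries; black dots below a bar mark the libraries with a peak. Bases under the first epithelium library alone were the most common at 12.3%, both epithelium libraries alone (purple) took 9.52%, both mesothelium libraries alone (green) 5.46% and all 4 (dark) 9.76%.

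The authors' peak caller gave each peak a fold enrichment and a −log10 q, a measure of significance. Fold enrichment is given here as medians only, and all ranks within a list are by −log10 q. The median fold enrichment of the strongest peak in a member was 3.99 and 4.11 for mesothelium, 3.91 and 3.99 for epithelium. In the narrower shared regions it was 3.85, 4.16, 3.74 and 3.80. Ranked by its strongest peak, the median member stood in the top 21.6% and 26.6% of the mesothelium lists and the top 19.8% and 18.2% of the epithelium lists, and the median narrower shared region in the top 28.4%, 23.2%, 28.4% and 25.9%. So members ranked higher in 3 of the 4 libraries and lower in the second mesothelium library. Members were selected for width, and the 824 of them held 1187, 1120, 1188 and 1205 peaks in the 4 libraries. Ranks were not adjusted for how many peaks a region holds or how long they are. Of the 100 peaks highest in a list, members held 9.0% and 2.0% in mesothelium and 2.0% and 1.0% in epithelium, and narrower shared regions held 38.0%, 52.0%, 33.0% and 41.0%. Of the highest 1000, members held 4.7% to 6.1%, above their 2.48% to 3.04% of all peaks, and narrower shared regions 20.8% to 34.8%.

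The widest members show what such stretches consist of. At Bcl2l1, whose product BCL-XL protects cells from apoptosis, the 21.7-kb member at chr2:152809976-152831677 was covered for 15.2 and 5.20 kb in mesothelium against 18.8 and 11.3 kb in epithelium. All 4 libraries had a peak over 1.45 kb of it. The second mesothelium library was the lowest, and the 2 groups overlapped.

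Ddc, the gene of aromatic L-amino acid decarboxylase, held 2 of the 3 widest. The 20.5-kb member at chr11:11820052-11840510 was covered for 15.0 and 6.32 kb in mesothelium against 15.0 and 16.6 kb in epithelium, with 4.50 kb in common. The 19.1-kb member at chr11:11876459-11895510 had 6.64 and 3.85 kb in mesothelium against 12.9 and 17.9 kb in epithelium, and here both epithelium libraries were above both mesothelium libraries. The 18.5-kb intergenic member at chr12:56284653-56303182, 25.1 kb from the nearest end of Mbip, had 6.24 and 0.317 kb in mesothelium against 12.5 and 18.3 kb in epithelium. It entered the set through a single 0.317-kb peak in the second mesothelium library. Akt2, a kinase of insulin signalling, carried the widest member in which both mesothelium libraries were the longer. Its 18.2 kb at chr7:27589985-27608226 were covered for 12.1 and 14.4 kb in mesothelium against 7.28 and 5.64 kb in epithelium.

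Hipk2 (a nuclear kinase), Serpinb6b (a serine protease inhibitor), Zmynd8 (a reader of acetylated chromatin), Sptbn1 (spectrin) and Rere (a nuclear receptor cofactor) completed the 10 widest, from 17.5 to 16.1 kb. Zmynd8 had the largest common share among these 10: 12.3 and 7.14 kb in mesothelium, 13.2 and 12.1 kb in epithelium, and 6.46 kb or 39.6% of its width in common. A run of 6108 bp there lay unbroken under all 4 libraries, the longest such run in any member. Hipk2 lay at the other end of the 10 that had any common base, with 6.54 and 1.10 kb in mesothelium, 9.54 and 13.6 kb in epithelium and 0.090 kb in common.

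Members with the highest common share were shorter. Alad, the gene of a heme synthesis enzyme, led with 63.2% of 7.81 kb, covered for 7.41 and 5.31 kb in mesothelium against 5.25 and 5.53 kb in epithelium. Lims1, which encodes the integrin-linked adaptor PINCH1, had 59.7% of 6.07 kb, with 5.90 and 3.91 kb in mesothelium against 5.63 and 5.97 kb in epithelium. Kmt2e, a gene of the SET-domain family, had 54.6% of 8.35 kb, with 6.41 and 6.33 kb in mesothelium against 5.80 and 6.44 kb in epithelium. In these 3 the cell types overlapped. Ppfibp2 (50.8%) and B4galt1 (50.5%), whose promoters are printed above, were followed by Tent2, Ctnnd1, a region near Atp5g2, Wls (a carrier for WNT secretion) and Rock2 (a kinase that drives actomyosin contraction), down to 46.1%. Ctnnd1, the gene of p120-catenin at cell junctions, was the widest of the 10 at 14.2 kb, with 12.7 and 10.1 kb in mesothelium, 8.20 and 10.1 kb in epithelium and 6.68 kb in common.

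Positions against genes did not enter the rule. Members lay inside coding genes, away from listed starts, more often than the narrower shared regions did. The start list held 17492 of the 21887 coding genes and none on chromosome 18, so a start missing from it counts here as absent. Of the 824 members, 797 lay on the other chromosomes, and 231 of these (29.0%) held the listed start of a coding gene. Another 490 (61.5%) overlapped a coding gene without holding a listed start, and 76 (9.54%) were intergenic. Of the narrower shared regions 44.0% held a listed start, although they are the shorter ones. Members held 5.68 listed coding starts per 100 kb and narrower shared regions 21.4. Of all 824, 746 (90.5%) overlapped a coding gene.

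Distance to gene ends gave the same order. More than 2 kb from the end of any gene lay 458 members (55.6%) and 41.2% of the narrower shared regions. A wider region reaches a gene end more easily, and when only the middle 300 bp of each region was used the shares were 75.5% and 45.3%. On that measure the members were near the mesothelium-only regions (76.3%) and below the epithelium-only regions (82.8%). Regions on 1 chromosome share genes and are not replicates, so these shares are given as descriptions without a test.

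**Figure D3:**
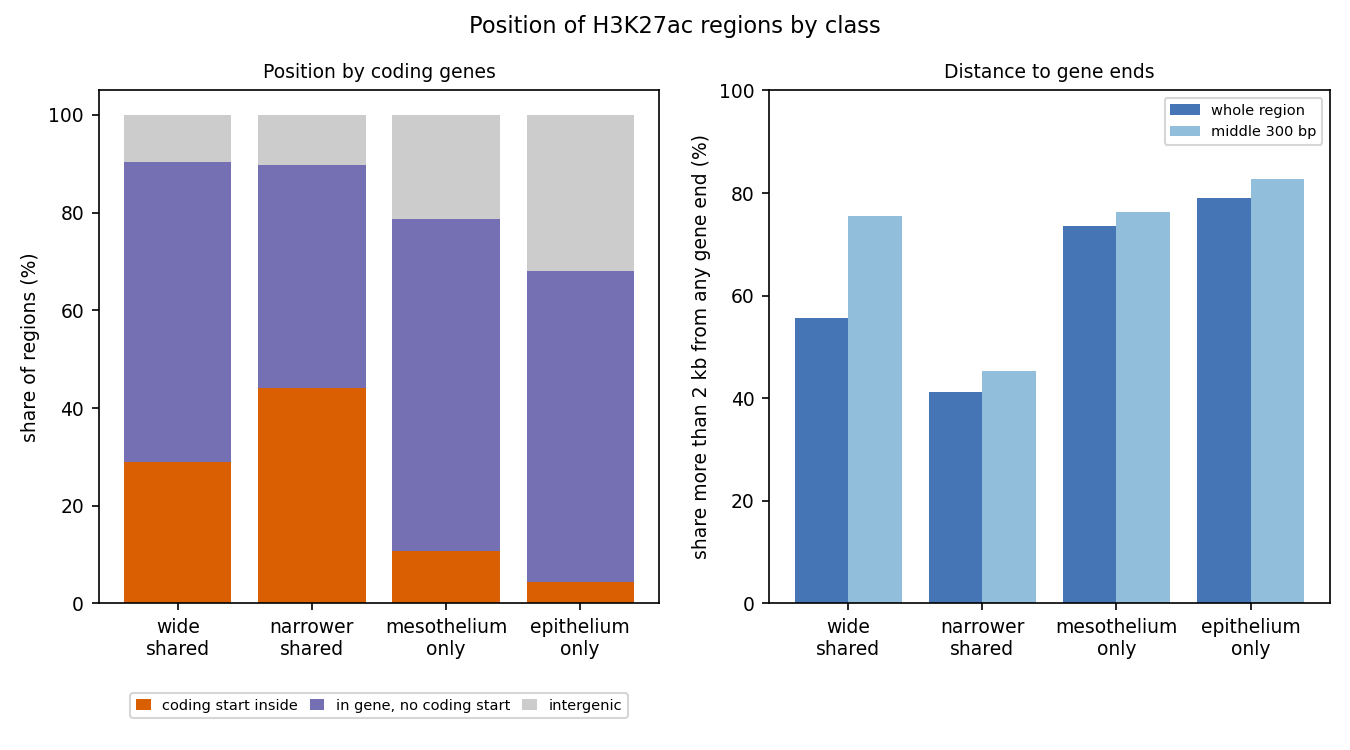
Position of 4 classes of merged regions: share (%) with a listed coding start inside, inside a gene without a listed start, or intergenic (left), and share more than 2 kb from any gene end for the whole region and for its middle 300 bp (right). A listed coding start lay in 29.0% of wide and 44.0% of narrower shared regions, and the middle lay away from gene ends in 75.5% and 45.3%.

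Position went together with how far the 4 libraries coincided. Members with a listed coding start had a median of 9.13% of their width under all 4 libraries, and 56 of them (24.2%) had none. Members inside a gene without a listed start had a median of 3.68% and none in 196 (40.0%). Intergenic members had a median of 6.78%, with none in 31 of 78 (39.7%), 2 of the 78 being on chromosome 18. Of the 329 listed promoters in members, which belong to 257 genes, 61 lay whole under a peak in all 4 libraries, 87 in 3, 108 in 2, 64 in 1 and 9 in none.

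Sequence of the members' promoters lay between that of narrower shared regions and that of all coding promoters in CpG content. A CpG ratio above 0.6 was found in 69.6% of the members' promoters, 82.4% of those in narrower shared regions and 47.6% of all 21263. GC boxes were found in 65.0%, 66.7% and 46.2%, and the TATAAA letters in 8.21%, 5.09% and 12.6%. The ETS letters were found in 14.3% of members' promoters, 24.4% of those in narrower shared regions and 11.6% of all. A match is a run of letters and not a bound site.

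Long genes held several members each. The 649 coding genes that a member overlapped had a median length of 61.1 kb, against 33.2 kb for genes overlapped by a narrower shared region and 17.2 kb for all coding genes. Of these genes 120 held at least 2 members and 32 at least 3, and 293 members (35.6%) had another member within 50 kb. Nfib, a nuclear factor I gene needed for lung maturation, held the most with 6, which spread over its 217 kb. Summed over the 6, peaks covered 37.2 and 29.5 kb in mesothelium against 39.1 and 18.6 kb in epithelium, and each of the 6 overlapped between cell types. Cux1 (a homeobox repressor gene), Lamc1 (the laminin gamma 1 chain), Rere and Tcf12 (a partner of tissue-specific bHLH factors) held 5 each. Mecom, which encodes the zinc finger factor EVI1, held 4. In all 4 both epithelium libraries were above both mesothelium libraries, beside 30.6% of all members and 24.6% of all tested regions. The 4 Mecom members lie in 1 gene and are not replicates. Their summed coverage was 7.90 and 5.09 kb in mesothelium against 29.7 and 27.1 kb in epithelium.

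Between mesothelium and epithelium the length under peaks was compared for every merged region whose mean reached 0.5 kb. The rule requires a peak in all 4 libraries, which limits how far a member can differ, so the members' counts are read only beside those over all regions. No member passed an adjusted p of 0.05 in limma with Benjamini-Hochberg adjustment, and of all 18810 regions tested 0 passed in either direction (0.0%). The lowest adjusted p was 0.149. At an unadjusted p under 0.05, limma gave 30 members longer in mesothelium and 116 longer in epithelium, 17.7% of members beside 20.6% of all tested regions (8.07% and 12.6% in the 2 directions). That split moved with the scaling and with single libraries: it was 46 and 84 scaled to total covered length, 45 and 91 with quantile normalization, 28 and 57 without the first epithelium library and 44 and 47 without the second. With 2 libraries against 2 the test had little reach on simulated members. There it found 0.8% of log2 differences of 1, 12% of those of 2, 46.6% of 3 and 84.8% of 4. Only 200 of the 18810 regions were changed in the simulation, so these shares hold for that setting and may differ in the real data. The members' own log2 differences ran from -2.99 to 2.29. A shorter covered length cannot be told apart from fewer cells that carry the mark. Mesothelium libraries were labelled with 25k and 100k cells and epithelium libraries with 100k and 200k. An effect of cell number therefore cannot be told apart from one of cell type.

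Counted by whether the libraries overlapped, 155 members (18.8%) were longer in both mesothelium libraries than in both epithelium libraries, beside 20.5% of all tested regions. The reverse held for 252 members (30.6%), beside 24.6% of all tested regions, and 417 members overlapped. Together 407 members (49.4%) did not overlap, near the 45.1% over all regions. The median log2 difference, mesothelium minus epithelium, was -0.20 in members, -0.08 over all tested regions and 0.06 in narrower shared regions. Scaling by total covered length put these medians at -0.01, 0.06 and 0.22 and quantile normalization at -0.05, 0.05 and 0.19, so every median moved by over 0.1 with the scaling while the members stayed the lowest of the 3. By position, members with a listed coding start had a median of -0.01, those inside a gene without a listed one -0.24 and intergenic ones -0.62. With the total scaling these became 0.19, -0.05 and -0.42, the sign of the first changing.

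**Figure D4:**
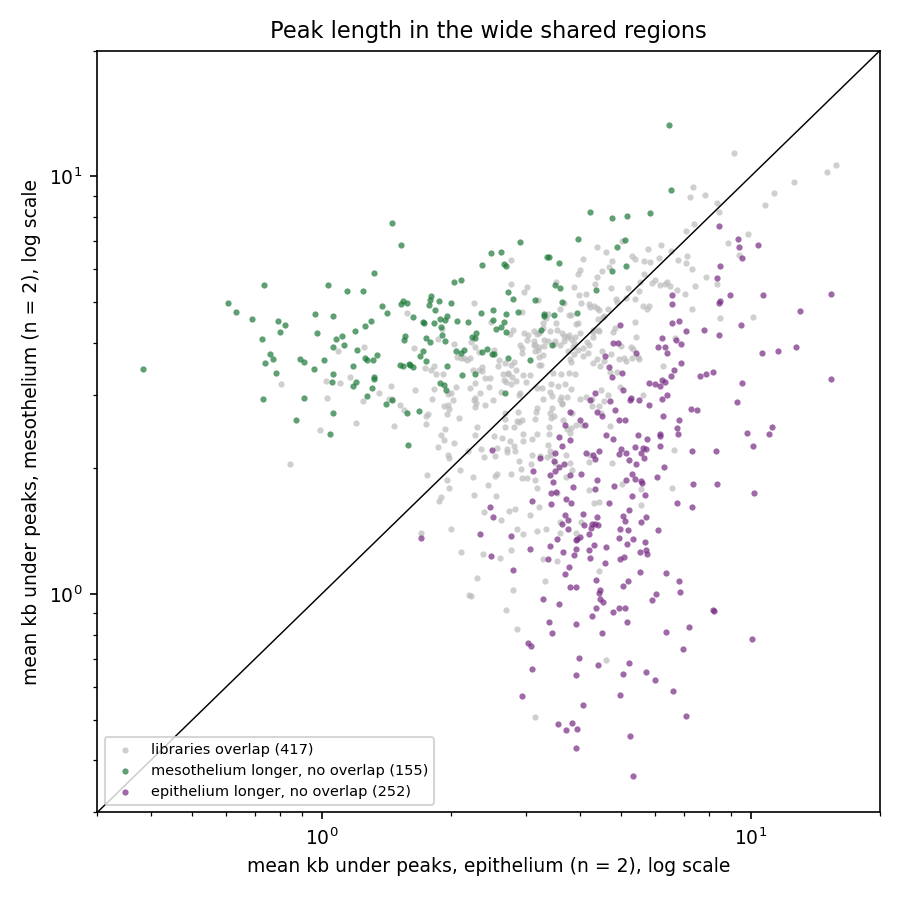
Mean length under peaks in the 2 mesothelium libraries against the mean in the 2 epithelium libraries for the 824 members (points, both axes in kb on a log scale, line of equality). Points of the 155 members longer in mesothelium (green) and the 252 longer in epithelium (purple) are those whose libraries did not overlap, and 417 overlapped (grey).

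The largest difference toward epithelium was at a transcription factor gene. At Mecom, a 14.3-kb member at chr3:30493943-30508235 was covered for 1.07 and 0.494 kb in mesothelium against 14.3 and 5.81 kb in epithelium, a log2 difference of -2.99 ± 0.59 (SE; limma adjusted p = 0.149). It was longer in 2 of 2 epithelium libraries and did not pass the adjusted threshold. The member near Mbip described above (-2.77), one 9.9 kb from Pbp2 (-2.76) and one in Cachd1 (-2.75) were also among the 5 largest. In these 4 members no base was common to all 4 libraries.

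Toward mesothelium the 5 largest differences were at Zc2hc1b, Msh5 with Clic1, Ttll5, Nrd1 and Rbm39, with log2 differences from 2.29 to 2.02 and limma adjusted p from 0.149 to 0.183. Zc2hc1b was covered for 4.87 and 5.09 kb in mesothelium against 0.784 and 0.427 kb in epithelium. Msh5 (a meiotic mismatch repair homologue) with Clic1 (a chloride channel protein) had 5.22 and 5.79 kb in mesothelium against 1.03 and 0.440 kb in epithelium. Rbm39, a splicing factor gene, had 1.96 and 4.94 kb in mesothelium against 0.422 and 0.346 kb in epithelium. The groups did not overlap in any of the 5, and none passed the adjusted threshold.

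Gene lists were counted by how many of their genes overlapped a member or had an end within 1 kb of one. Of all 21887 coding genes 660 (3.02%) did, and the share grew with length, from 1.13% of genes under 20 kb to 4.31% of those of 20 to 100 kb and 8.15% of those of at least 100 kb. List counts below are therefore given with the median gene length of the list. Counts of members whose libraries did not overlap are read beside the shares over all members, 18.8% longer in mesothelium and 30.6% longer in epithelium. Several members of a list can lie in 1 gene, and such members are not replicates.

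The TGF-beta and BMP list (42.9% of its genes) and the WNT list (33.3%) lay at members in high proportion, and the Hippo list less often (18.8%). Lists of chromatin regulators (38.9%), broadly expressed factors (38.9%) and RNA processing genes (33.3%) reached similar shares. Other signalling pathways were not counted. Of 21 TGF-beta and BMP pathway genes (median 69.0 kb) 9 lay at a member: the ligand Tgfb2, the receptors Tgfbr2, Bmpr1a and Bmpr2, the signal carrier Smad2, the inhibitors Smad6 and Smad7, and the targets Id2 and Id3. Their 11 members included 4 longer in both mesothelium libraries (36.4%, beside 18.8% of all members), 2 longer in both epithelium libraries (18.2%, beside 30.6%) and 5 that overlapped. At Smad6 the 7.67-kb member had 6.39 and 3.41 kb in mesothelium against 0.994 and 1.77 kb in epithelium, which did not overlap. At Smad7 the 8.51-kb member had 2.78 and 0.793 kb in mesothelium against 8.51 and 2.59 kb in epithelium, which did. At Id2 the 6.36-kb member was even in covered length, with 4.88 and 4.04 kb in mesothelium against 3.81 and 4.11 kb in epithelium. Similar lengths need not lie over the same bases. The list's 11 members had a median of 2.38% of their width under all 4 libraries, beside 5.71% over all members.

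Of 18 WNT pathway genes (median 59.9 kb) 6 lay at a member, with 10 members. Of the 10, 7 were longer in both epithelium libraries (70.0%, beside 30.6% of all members and 24.6% of all tested regions) and 0 in both mesothelium libraries (beside 18.8% and 20.5%). The median log2 difference was -1.21 beside -0.20 over all members (-1.01 and -0.01 with the total scaling). None passed the adjusted threshold. Fzd7, a WNT receptor gene, had 3.75 and 3.06 kb in mesothelium against 9.11 and 7.21 kb in epithelium over 10.4 kb. Rnf43 and Znrf3, which encode ubiquitin ligases that remove WNT receptors, held 3 and 2 of these members. The widest at Rnf43, 8.71 kb, had 2.34 and 1.47 kb in mesothelium against 8.71 and 3.39 kb in epithelium. The other 3 members, 1 each at Ctnnb1, Lrp5 and Lrp6, overlapped between cell types. At Ctnnb1, the beta-catenin gene, the 8.54-kb member had 3.70 and 5.91 kb in mesothelium against 1.32 and 5.88 kb in epithelium.

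Of 18 nuclear factor I, FOXP and other broadly expressed factor genes (median 246 kb, the longest of the lists) 7 lay at 20 members: Nfia, Nfib, Foxp1, Foxp2, Tcf12, Rreb1 and Foxo3. Of these, 4 (20.0%) were longer in mesothelium, near the 18.8% of all members, 4 (20.0%) were longer in epithelium, beside 30.6%, and 12 overlapped. The 14.6-kb Foxp2 member had 3.30 and 1.53 kb in mesothelium against 11.6 and 10.5 kb in epithelium. The 10.9-kb Foxo3 member had 8.23 and 4.03 kb in mesothelium against 2.46 and 2.27 kb in epithelium. FOXP2 is a forkhead repressor of the airway epithelium and FOXO3 a forkhead factor of the stress response.

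Of 16 Hippo pathway genes (median 45.9 kb) 3 lay at 7 members: Yap1, the coactivator, Tead1, its DNA-binding partner, and Amotl2, which holds YAP in the cytoplasm. The widest at Yap1, 10.1 kb, had 3.37 and 4.50 kb in mesothelium against 7.13 and 2.87 kb in epithelium. The widest at Tead1, 9.82 kb, had 0.557 and 1.07 kb in mesothelium against 5.02 and 7.71 kb in epithelium. The Yap1 groups overlapped and the Tead1 groups did not.

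Cell structure and matrix genes also lay at members. Of 16 basement membrane and matrix receptor genes (median 78.1 kb) 4 lay at 10 members, of which 5 were longer in both epithelium libraries (50.0%, beside 30.6% of all members and 24.6% of all tested regions) and 0 in both mesothelium libraries (median log2 -1.06, or -0.87 with the total scaling). The 14.9-kb member of Sdc1, the syndecan-1 gene, had 4.79 and 3.03 kb in mesothelium against 14.6 and 10.8 kb in epithelium. Lama5, the laminin alpha 5 chain gene, overlapped with 4.41 and 7.50 kb in mesothelium against 6.32 and 2.69 kb in epithelium. Of 18 actin cytoskeleton genes (median 37.9 kb) Actn1, Actn4, Myh9 and Vcl lay at 8 members, 2 of them longer in both mesothelium libraries (25.0%, beside 18.8% of all members), 0 in both epithelium libraries and 6 overlapping (median log2 0.09). The 14.5-kb Myh9 member, in the gene of nonmuscle myosin heavy chain, had 12.1 and 6.78 kb in mesothelium against 7.52 and 7.13 kb in epithelium.

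Chromatin and RNA processing lists were counted in the same way. Of 18 chromatin regulators (median 83.1 kb) 7 did, among them Ep300 and Crebbp, the H3K27 acetyltransferase genes themselves, the chromatin remodelling genes Arid1a and Arid1b, and the deacetylase gene Hdac4. At Ep300 the 8.94-kb member had 4.62 and 6.38 kb in mesothelium against 4.10 and 2.90 kb in epithelium. The 2 groups did not overlap.

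Of 18 RNA processing genes (median 13.7 kb, shorter than the median coding gene) 6 lay at a member: Hnrnpa2b1, Rbm39, Tra2b, Mbnl1, Mbnl2 and Qk. The widest at Mbnl1, a regulator of alternative splicing, was 11.9 kb, with 7.47 and 8.43 kb in mesothelium against 5.74 and 3.77 kb in epithelium. Another member in the same gene, 11.1 kb wide, had 3.43 and 0.971 kb in mesothelium against 11.1 and 3.49 kb in epithelium. There the closest libraries of the 2 cell types, at 3.49 and 3.43 kb, were nearly equal. Mbnl1 thus held members longer in each cell type, as did Rere, Tcf12, Rad51b, Sptbn1, Ttll5 and B4galt1. Of the list's 10 members 2 were longer in both mesothelium libraries (20.0%, beside 18.8% of all members). Another 4 were longer in both epithelium libraries (40.0%, beside 30.6%), and 4 overlapped.

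Of 12 long noncoding and microRNA host RNA genes (median 5.03 kb) 3 lay at a member, and each of these is among the 87 members with at least 25% of their width in common. Around Malat1, an abundant nuclear RNA, 8.26 kb were covered for 4.64 and 7.03 kb in mesothelium against 2.95 and 4.97 kb in epithelium. Around Neat1, which builds paraspeckles, 7.38 kb were covered for 5.97 and 3.63 kb in mesothelium against 4.74 and 4.14 kb in epithelium. Beside H19, an imprinted fetal RNA, the 5.40-kb member lay within 1 kb of the gene without overlapping it. It was covered for 3.53 and 3.89 kb in mesothelium against 4.85 and 4.31 kb in epithelium. Their common shares were 30.8%, 37.9% and 32.0%, against the members' median of 5.71%.

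Among cell identity lists, the epithelial and mesodermal transcription factor lists and the alveolar list had 1 or 2 genes each at members. The mesothelial, endothelial, immune, fibroblast and smooth muscle, and epithelial junction and keratin lists had 0. Of 20 lung epithelial transcription factor genes (median 6.57 kb) 2 (10%) lay at a member, Id2 among them, and of 18 mesodermal factor genes (median 22.3 kb) 2 (11.1%), Gata6 among them, beside 3.02% of all coding genes. Gata6, an endoderm and mesoderm factor gene, held 2 adjacent members; the 8.97-kb one at chr18:11044661-11053632 had 4.12 and 4.44 kb in mesothelium against 6.59 and 8.97 kb in epithelium. Of 16 alveolar genes (median 30.1 kb) only Lpcat1, whose enzyme makes surfactant lipid, lay at a member, with 7.90 and 3.6 kb of 12.7 kb in mesothelium against 7.58 and 8.20 kb in epithelium. The cell types overlapped at Lpcat1 and did not at this Gata6 member. Of 23 immediate early genes (median 4.02 kb) Jund and Zfp36l1 lay at a member. Jund had 3.97 and 4.94 kb in mesothelium against 1.89 and 1.76 kb in epithelium over 5.68 kb.

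None of 20 ribosomal protein genes (median 4.06 kb) lay at a member, although 7 (Rpl4, Rpl5, Rpl7, Rpl11, Rpl37 and Rps6 among them) lay at a narrower shared region. None of 17 epithelial junction and keratin genes (median 15.1 kb) lay at a member, and only Krt7 lay at a narrower shared region.

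**Figure D5:**
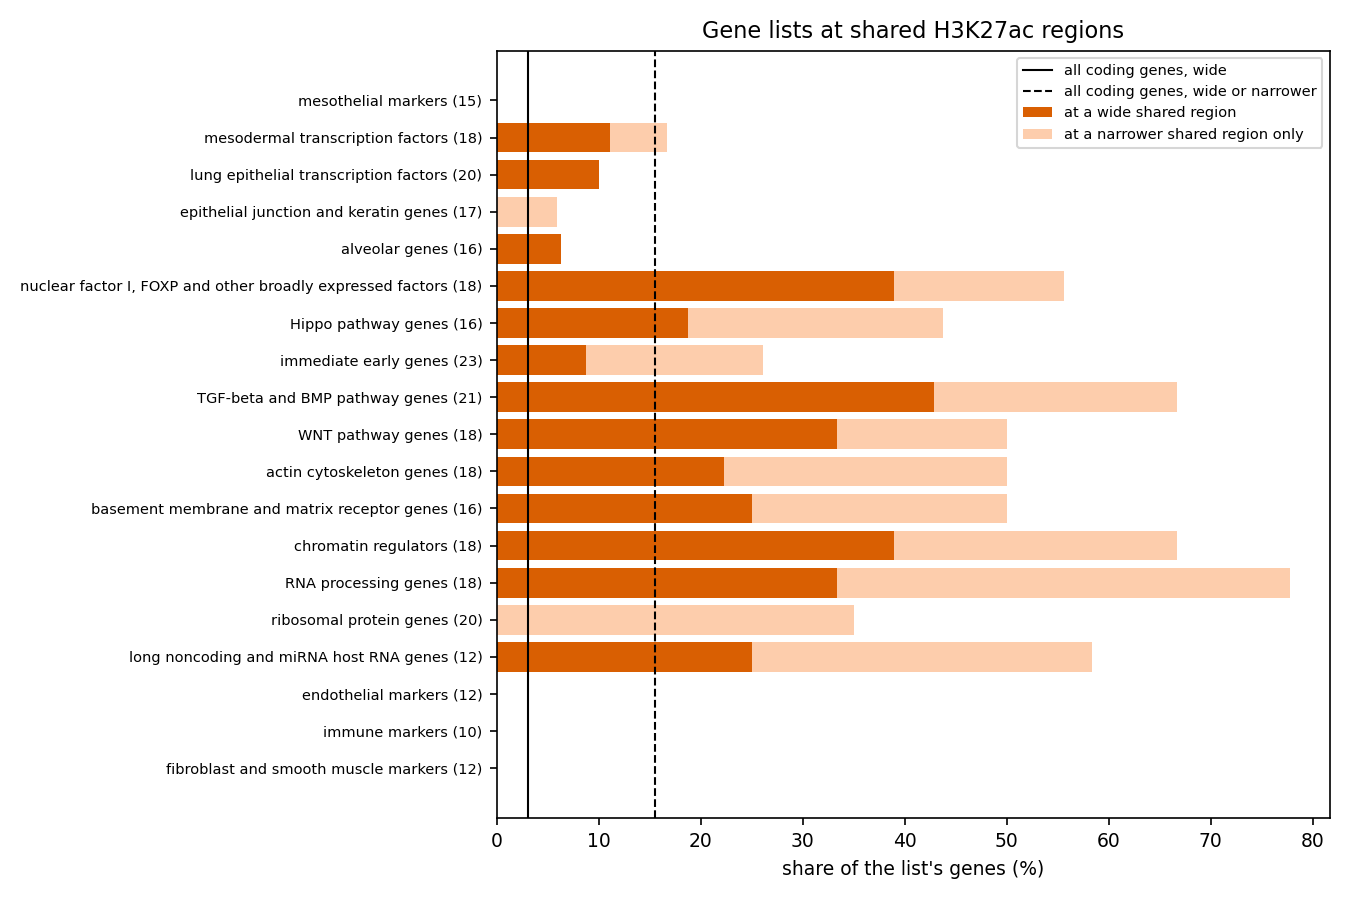
Share of each gene list (%, list size in brackets) at a wide shared region (dark) or at a narrower shared region only (light); vertical lines give the share over all coding genes, 3.02% for wide regions (solid). TGF-beta and BMP pathway genes reached 42.9%, while 0 mesothelial, junction and keratin, ribosomal protein, endothelial, immune or fibroblast and smooth muscle genes lay at a wide region.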

How the data were processed

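H3K27ac CUT&RUN was deposited as 1 broad peak list per library on mm10. Per the submitters' processing notes the tools included MACS2 2.2.9.1, which writes such lists, Bowtie2 2.5.3 and cutadapt 4.8; the sources used here do not give their settings. The deposited columns hold a display score, a fold enrichment (a ratio) and −log10 p and q values per peak, as the authors' peak caller gave them. No list holds counts, so depth is unknown. Peaks were called per library.

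Peaks were merged where they overlapped or touched, and the kb under peaks was taken per region and library. limma 3.58.1 (R 4.3.3, trend) tested log2(kb + 0.5), median-centred over the 4281 shared regions, in the 18810 regions with a mean of at least 0.5 kb; a fold change on this scale understates that of short coverage. The script was tested on simulated data (10 sets, 200 changed members). Gene positions, promoters and microRNAs came from RefSeq tables on GRCm38.p6. No promoter was listed for chromosome 18, nor for every coding gene elsewhere. All 318 list entries matched. Merging and counting ran in Python 3.11.15 with numpy 2.4.6 and pandas 2.3.3.

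Members, the 19 gene lists and tests were chosen with earlier results of these data known. Named were the 10 widest members, the 10 with the highest common share, the 5 largest differences in each direction (as no member was called), up to 4 members per list, widest first, and the 3 nearest the width threshold on each side; other names were chosen after their values were seen. A member is labelled by the coding genes it overlaps, or else by the nearest one. Alternatives were other peak thresholds, merging distances, widths, scalings, filters, a replicate block and leaving out each library. Some items that the naming rule selects are not reported here.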

Additional observations from a re-analysis of the deposited data

How the results depend on the processing

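The number of members depended on how peaks were thresholded and merged. It was 186 with peaks of −log10 q of at least 2, 0 with at least 4, 1459 when peaks up to 1 kb apart were merged, 1384 at a width of at least 4 kb, 103 at 10 kb, 470 when a single peak of 5 kb was required, and 594 to 747 with 1 library left out. An equal number of peaks per library (39006) gave 761, a minimum of 10% of the width in every library 660, and, chosen after seeing the data, not merging touching peaks 823. The share of members more than 2 kb from gene ends was 47.8% at 5 kb, 67.5% with coding genes only, 75.5% for the middle 300 bp and 54.3% to 61.6% with 1 library left out (61.6% without the second mesothelium library). The share of bases common to all libraries was 15.9% to 18.4% with 1 library left out, where only 3 had to coincide, and 13.0% with the stricter q. Genes at members numbered 257 instead of 660 when a listed start site had to lie inside, also chosen after seeing the data.

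No member was called longer in either cell type under the other pseudocount, scalings, filters or leave-one-out fits (0 to 0), except that without the filter on mean length 17 members were called longer in epithelium and 0 in mesothelium. Without that filter, 5 of all 132165 regions were called longer in mesothelium and 52 in epithelium. With a replicate block, 3 members were called longer in mesothelium and 52 in epithelium (537 and 947 of all regions). Mecom and Sdc1 were among these 52 members. The labels do not say that a replicate number marks a shared pool, and with 2 pairs the correlation of same-numbered libraries' deviations was 0.0439, so the block is not used for any call. Leaving out a library leaves 1 in an arm, which is then assumed to vary like the other arm. Having 2 libraries per cell type, peak calls in place of counts and unknown depth limit every difference given here.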
